A study of Homo sapiens with 6 samples.

Results

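The trefoil factors are small secreted peptides, and with the genes of the secretory luminal program they formed the set of 8 genes described here: TFF1, TFF2, TFF3, AGR2, SPDEF, ELF3, GREB1 and XBP1. The set was 8 of the 26255 gene symbols of the table. It was chosen with the difference between the groups already known for TFF1, so the values of these genes are given as a description, with no test. RNA was sequenced from MDA-MB-231, a human breast cancer cell line of mesenchymal-like character that lacks the estrogen receptor. The cells had been infected with lentivirus and selected with puromycin, and carried a control hairpin (shNT) or one directed at the lactate receptor GPR81, the product of HCAR1 (shGPR81), with 3 libraries in each group. The shRNA of the second group is given only as shGPR81, so which of the study's hairpins the sequenced cells carried is not known from the labels, and nothing says that the libraries of a group came from separate cultures. A p-value therefore measures the spread between these libraries, which may be technical.

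Trefoil factors are secreted together with gel-forming mucins by mucous epithelia, where they protect and repair the mucosal surface. In breast cancer, TFF1 and GREB1 are classical targets of the estrogen receptor, and TFF1 and TFF3 are typical of luminal tumors. AGR2 is a protein disulfide isomerase of the endoplasmic reticulum that helps to fold mucins, XBP1 is a transcription factor of the unfolded protein response and of secretory cells, and SPDEF and ELF3 are ETS transcription factors of epithelial and secretory differentiation.

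The values are FPKM, fragments scaled to transcript length and library size, so levels of different genes can be compared per length. Reads recovered from the steps of the FPKM gave relative depths of 1.07 or less against the first shNT library. HCAR1, the targeted gene, was at 0.968, 1.02 and 1.36 FPKM in shNT and at 0.978, 0.891 and 0.396 FPKM in shGPR81. The groups overlapped, and the log2 difference (shGPR81 minus shNT, on the log2(FPKM + 0.1) scale used throughout) was -0.57 (SE 0.31, limma adjusted p = 0.38). HCAR1 had 129 reads in shNT and 92 in the shGPR81-labelled libraries, at relative depth 1.48-fold lower. The Clopper-Pearson interval, 1.12 to 1.95, covers counting error only. By library the reads were 37, 40 and 52 against 40, 36 and 16, with the third shGPR81-labelled library the lowest. Without that library the log2 difference was -0.22. The paper reports lower GPR81 in its knockdown lines by RT-qPCR and western blotting. Because HCAR1 was not called lower here, the second group is written as the libraries labelled shGPR81. Over the table, 14349 genes passed the filter on low values. A gene was called at an adjusted p under 0.05 with a fold above 1.5, which held for 228 lower genes (1.59%) and 137 higher genes (0.955%).

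As a check of the cell type, VIM, the intermediate filament of mesenchymal cells, lay between 3210 and 4440 FPKM over the 6 libraries. The 8 mesenchymal-like markers summed to 4100 to 4920 FPKM in shNT and to 4900 to 5470 FPKM in the shGPR81-labelled libraries, and 0 of 7 tested were called. These sums were mostly VIM, at 3550 ± 365 and 4130 ± 268 FPKM (SD, n = 3). The markers did not move together: VIM and MSN were above without overlap, FN1 and CD44 below, and 3 overlapped. SPARC was below the filter. The 4 basal epithelial markers summed to 0.108 to 0.158 FPKM in shNT and to 0.282 to 0.409 FPKM in the shGPR81-labelled libraries, with KRT5 and KRT17 listed at 0. This was mostly the level of TP63, a basal transcription factor and the 1 tested marker of the list, at 0.111 ± 0.00482 and 0.338 ± 0.0648 FPKM (SD, n = 3). Its groups did not overlap, with a log2 difference of 1.05 (SE 0.24, limma adjusted p = 0.0575), which missed the threshold but passed it without a filter, with quantile normalization and with limma without trend. Of the 14 luminal markers, ESR1 (the estrogen receptor), PGR, CDH1 and GRHL2 were listed at 0 in all 6 libraries, while KRT8 and KRT18 were above 100 FPKM. The luminal markers summed to 453 to 580 FPKM in shNT and to 480 to 553 FPKM in the shGPR81-labelled libraries. These did not move together either: of 9 tested, 0 were called, 2 were above without overlap and 7 overlapped. KRT19 was above, with a log2 difference of 0.53 (SE 0.12, limma adjusted p = 0.045) that missed only the fold limit. KRT8 and KRT18 overlapped, at -0.25 (SE 0.11) and -0.19 (SE 0.10). CLDN4, CLDN7 and EPCAM also overlapped, with shNT means of 33.4, 17.5 and 6.16 FPKM. The genes described here were thus read in cells with ESR1 and PGR listed at 0 and other luminal markers expressed.

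All 8 genes passed the filter. TFF1, TFF2 and TFF3 were lower in the shGPR81-labelled libraries, each without overlap between the groups. These 3 of 8 were within the limits of a call, beside 1.59% of all tested genes called lower. For genes selected on this contrast this is a description of size and spread and not a test. GREB1 was also lower in every library but outside these limits, and AGR2, SPDEF, ELF3 and XBP1 overlapped between the groups. The 4 of 8 below without overlap stand beside 12.7% of all tested genes, with 12.9% above without overlap. The log2 difference was negative for all 8, with a median of -0.64, while the median of all tested genes was 0.01. Nothing is read from these shares or medians, since the set was selected on this contrast.

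**Figure D1:**
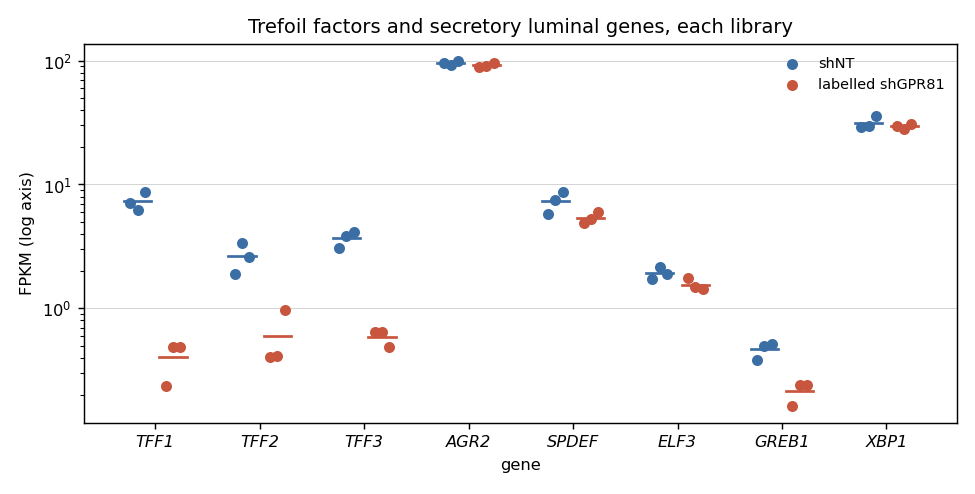
Each point is the FPKM of 1 library on a log axis for the 8 genes, with shNT on the left of each pair (blue), the shGPR81-labelled libraries on the right (red) and a bar at the mean of 3 libraries. The 3 trefoil factors and GREB1 separate between the groups, whereas AGR2 stays between 88.7 and 99.0 FPKM in all 6 libraries.

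The level of TFF1, the trefoil peptide of gastric surface cells and of luminal breast tumors, was 7.15, 6.23 and 8.67 FPKM in shNT. In the shGPR81-labelled libraries it was 0.238, 0.483 and 0.483 FPKM. All 3 of these were far below all 3 shNT libraries. The means were 7.35 ± 1.23 and 0.401 ± 0.141 FPKM (SD, n = 3), a log2 difference of -3.92 (SE 0.24), the largest of the set. In reads, TFF1 had 87 in shNT and 5 in the shGPR81-labelled libraries, so at relative depth it was 18.3-fold lower, with a Clopper-Pearson interval at 95% from 7.58 to 57.8. This interval, like those below, covers counting error only. The upper end is wide because it rests on the 5 reads, at 1, 2 and 2 per library.

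TFF3, the trefoil peptide of intestinal goblet cells, was at 3.08, 3.85 and 4.11 FPKM in shNT and at 0.64, 0.648 and 0.486 FPKM in the shGPR81-labelled libraries. The groups were again apart, with means of 3.68 ± 0.532 and 0.591 ± 0.0915 FPKM (SD, n = 3) and a log2 difference of -2.45 (SE 0.17). Its 65 reads against 11 gave a 6.22-fold lower level (interval 3.26 to 13.1). Over the 6 leave-one-out fits, each made without 1 library, the log2 difference was -4.06 to -3.66 for TFF1 and -2.57 to -2.33 for TFF3.

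TFF2, the trefoil peptide of gastric mucous neck cells, was at 1.89, 3.4 and 2.61 FPKM in shNT and at 0.407, 0.412 and 0.961 FPKM in the shGPR81-labelled libraries. The third of these was the highest of its group, still below the lowest shNT library. The means were 2.63 ± 0.757 and 0.593 ± 0.318 FPKM (SD, n = 3), and the log2 difference was -2.03 (SE 0.33). The 55 reads against 13 gave a 4.45-fold lower level (interval 2.4 to 8.93). It fell outside the limits of a call without shNT replicate 2, or without either of shGPR81 replicates 1 and 2. The log2 difference was -2.39 to -1.84 over the 6 such fits. The intervals of the fold of the 3 trefoil factors overlapped each other. In bulk RNA, fewer cells that express a trefoil factor and less of its RNA in each cell cannot be told apart.

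AGR2, which folds secreted mucins in the endoplasmic reticulum, was the most abundant of the 8 genes. It was at 95.8, 91.9 and 99.0 FPKM in shNT and at 88.7, 90.1 and 95.5 FPKM in the shGPR81-labelled libraries. These overlap. The log2 difference was -0.06 (SE 0.05), and it lay between -0.09 and -0.04 over all alternatives.

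XBP1 was at 29.0, 29.7 and 36.0 FPKM in shNT and at 29.5, 28.2 and 30.9 FPKM in the shGPR81-labelled libraries, with a log2 difference of -0.09 (SE 0.09). The third shNT library was above the other 5, and without it the difference was 0.01. FPKM per gene does not show whether the XBP1 transcript was spliced to its active form.

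Of the ETS factors, SPDEF, which drives goblet cell differentiation, was at 5.82, 7.5 and 8.77 FPKM in shNT and at 4.9, 5.22 and 6.02 FPKM in the shGPR81-labelled libraries. The lowest shNT library lay inside the other group, and the log2 difference was -0.43 (SE 0.16). Without that library, shNT replicate 1, the log2 difference was -0.59, which came within the limits of a call. ELF3, an epithelial ETS factor, was at 1.71, 2.15 and 1.91 FPKM in shNT and at 1.76, 1.48 and 1.43 FPKM in the shGPR81-labelled libraries, with a log2 difference of -0.29 (SE 0.14). The first shGPR81-labelled library lay above the lowest shNT library. The antisense gene ELF3-AS1 overlaps ELF3, and whether the reads were assigned by strand is not given in the sources used here.

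GREB1, a cofactor and target of the estrogen receptor, was the least abundant, at 0.385, 0.496 and 0.516 FPKM in shNT and at 0.164, 0.24 and 0.24 FPKM in the shGPR81-labelled libraries. The groups did not overlap, with means of 0.466 ± 0.0704 and 0.215 ± 0.0442 FPKM (SD, n = 3). The log2 difference was -0.85 (SE 0.23), outside the limits of a call. GREB1 came within them in 1 of the 14 alternatives, limma without trend. The 161 reads against 78 gave a 2.17-fold lower level (interval 1.65 to 2.89). The pseudocount of 0.1 is large beside such levels and makes the log2 difference smaller than the fold of the reads.

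The order of the 8 levels differed between the groups at its lower end. In shNT the order of the means was AGR2, XBP1, SPDEF, TFF1, TFF3, TFF2, ELF3 and GREB1. SPDEF and TFF1 overlapped there, as did TFF3 and TFF2, and TFF2 and ELF3. In the shGPR81-labelled libraries the order was AGR2, XBP1, SPDEF, ELF3, TFF2, TFF3, TFF1 and GREB1. All 3 trefoil factors stood below ELF3 without overlap, while TFF2 overlapped with both TFF3 and TFF1, and TFF1 with GREB1.

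The 3 trefoil factors lie next to each other on the minus strand of chromosome 21 (GENCODE release 44 on GRCh37), TFF3 at chr21:43731777-43735519, TFF2 at chr21:43766466-43771106 and TFF1 at chr21:43782391-43786644, within 54868 bases. The other genes of the set are on other chromosomes, AGR2 at chr7:16831435-16873057, SPDEF at chr6:34505579-34524110, ELF3 at chr1:201977073-201986311, GREB1 at chr2:11622467-11782914 and XBP1 at chr22:29190543-29196585. No stretch of 75 bases, the read length, is shared between the annotated transcripts of the 3 trefoil factors (0 of 418, 773 and 892 stretches of TFF1, TFF2 and TFF3). A read identical to one of these transcripts would thus not match another exactly, while alignment with mismatches was not examined.

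Some genes around the trefoil factors were lower as well. Of 13 other annotated genes of the table with any part within 500 kb of the cluster, 8 were tested, and 4 of these were called lower and 0 higher, beside the 1.59% of all tested genes called lower. These were ABCG1, TMPRSS3, SLC37A1 and PDE9A. Since ABCG1 passed the filter only through its shNT libraries, its part in this count is a description. The flanking genes PRDM15, C2CD2, ZBTB21 and WDR4 were not called, with log2 differences between -0.12 and 0.15. UBASH3A, RSPH1, UMODL1, UMODL1-AS1 and ZNF295-AS1 were below the filter.

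ABCG1, a cholesterol exporter that lies before TFF3 on the chromosome, was at 0.792, 1.16 and 1.42 FPKM in shNT and at 0.0249, 0.0252 and 0.0757 FPKM in the shGPR81-labelled libraries. The groups were far apart, with a log2 difference of -3.09 (SE 0.28). ABCG1 passed the filter only through its shNT libraries, so no p is given and its call is a description. It was no longer tested when any shNT library was left out, since then fewer than 3 libraries reached 0.1 FPKM. TMPRSS3, a membrane serine protease next to TFF1, was at 1.35, 1.24 and 0.954 FPKM in shNT and at 0.179, 0.181 and 0.261 FPKM in the shGPR81-labelled libraries, a log2 difference of -2.06 (SE 0.21, limma adjusted p = 0.00261). Its call held with any 1 of the 6 libraries left out.

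SLC37A1, a sugar phosphate transporter, was at 4.29, 4.36 and 4.34 FPKM in shNT and at 2.58, 3.02 and 2.85 FPKM in the shGPR81-labelled libraries. Its groups were apart by less than those of the trefoil factors. The log2 difference was -0.61 (SE 0.09, limma adjusted p = 0.0123), close to the fold limit of 1.5, and its call was lost without shNT replicate 2 and without shGPR81 replicate 1. PDE9A, a phosphodiesterase that hydrolyses cGMP, was at 1.75, 1.58 and 1.54 FPKM in shNT and at 0.95, 0.697 and 1.01 FPKM in the shGPR81-labelled libraries, with a log2 difference of -0.82 (SE 0.17, limma adjusted p = 0.0344). Its groups did not overlap, but its call was lost without each of the 6 libraries in turn, where the difference was -0.91 to -0.68.

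**Figure D2:**
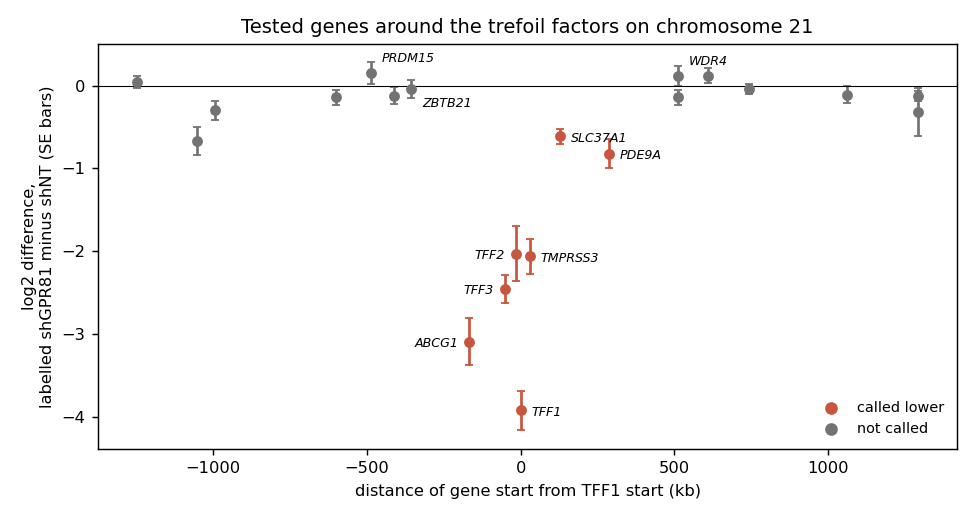
Points are the log2 differences (labelled shGPR81 minus shNT, bars show SE) of the tested genes near the trefoil factors on chromosome 21 against the distance of their start from that of TFF1 in kb. The genes within the limits of a call (red) are the 3 trefoil factors and 4 neighbours from ABCG1 to PDE9A, and the other genes plotted (grey) were not called.

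A wider view of this region was chosen after its values were seen, so it is a description. From the start of ABCG1 to the end of PDE9A, over 576 kb, the 4 tested genes other than the trefoil factors were all called lower. Of the 10 tested genes before ABCG1, 0 were called, with a median log2 difference of -0.09. Of the 10 after PDE9A, 0 were called, with a median of -0.04. Over the rest of chromosome 21, 116 genes were tested, of which 0 were called lower and 2 higher, with a median of -0.03. The differences of the trefoil factors were thus not shared by the chromosome as a whole, and no cause of the regional difference was tested.

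The mucous secretory list held 36 genes that act with or beside trefoil factors in mucous cells, of which 16 were at 0 in all libraries and 12 were tested. Of these, 4 were called lower and 0 higher, beside 1.59% and 0.955% of all tested genes, and the median log2 difference was -0.00. This and the other gene lists were chosen with earlier results of these data known, so their counts are a description. The gel-forming mucins, which build the mucus gel into which trefoil peptides are secreted, were 3 of the 4 genes called lower. MUC2 was at 0.732, 1.08 and 1.11 FPKM in shNT and at 0.273, 0.228 and 0.204 FPKM in the shGPR81-labelled libraries, with a log2 difference of -1.67 (SE 0.22, limma adjusted p = 0.00673). Its groups were apart, at 343 reads against 87, which is 4.15-fold lower (interval 3.27 to 5.32).

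MUC5AC, the main gastric surface mucin, was at 2.11, 3.04 and 2.86 FPKM in shNT and at 1.04, 0.886 and 0.539 FPKM in the shGPR81-labelled libraries, with a log2 difference of -1.61 (SE 0.24, limma adjusted p = 0.0112). The 639 reads against 207 gave a 3.25-fold lower level (interval 2.78 to 3.82). MUC5B, a mucin of airway and salivary glands, was at 1.82, 2.14 and 2.15 FPKM in shNT and at 1.05, 1.08 and 0.971 FPKM in the shGPR81-labelled libraries, with a log2 difference of -0.91 (SE 0.13, limma adjusted p = 0.00894). The groups of both were apart. The call of MUC2 held with any 1 of the 6 libraries left out, while the calls of MUC5AC and MUC5B were lost without shNT replicate 2. MUC5B overlaps the antisense gene MUC5B-AS1.

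MUC2, MUC5AC and MUC5B lie together on chromosome 11 with MUC6, which was below the filter. No stretch of 75 bases is shared among the annotated transcripts of these 4 mucins. In contrast to the trefoil factors, the tested neighbours of the mucin cluster within 500 kb, 28 genes, included 0 called in either direction, with a median log2 difference of 0.04. This window was drawn after the mucins had been seen to be lower. The fourth gene of the list was WFDC2, a secreted protease inhibitor, at 1.47 ± 0.656 and 0.318 ± 0.109 FPKM (SD, n = 3), with a log2 difference of -1.88 (SE 0.33, limma adjusted p = 0.0201). WFDC2 rested on few reads, 22 against 5, and was called in only 2 of the 6 leave-one-out fits. It lies on chromosome 20, where 44 of 368 tested genes were called lower and the median log2 difference was -0.39. The part of that chromosome's shift in the value of WFDC2 was not tested.

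**Figure D3:**
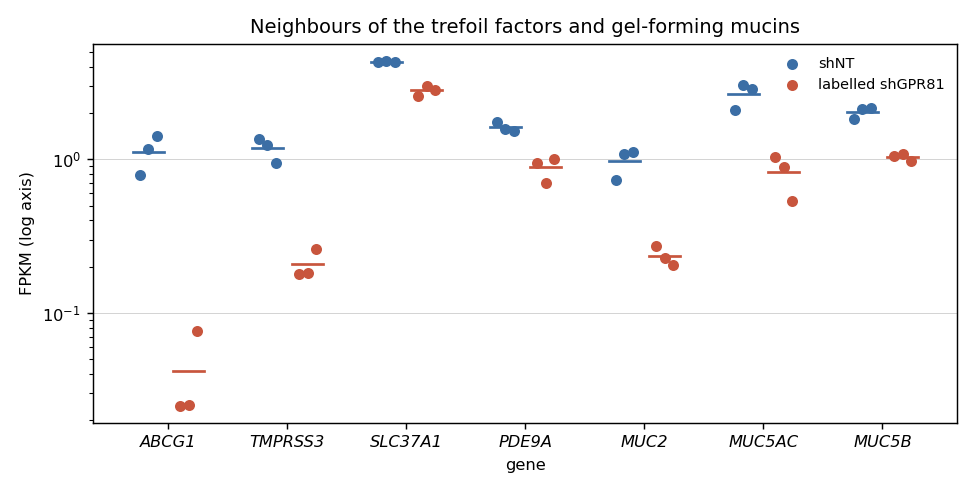
Each point is the FPKM of 1 library on a log axis for the 4 neighbours of the trefoil factors called lower and the 3 gel-forming mucins, with shNT in blue, the shGPR81-labelled libraries in red and a bar at the mean of 3 libraries. The groups of all 7 genes are apart, by most for ABCG1 (26.8-fold in mean FPKM) and by least for SLC37A1 (1.54-fold).

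The lists of the folding machinery that serves these secreted proteins held no calls, beside 1.59% of all tested genes called lower and 0.955% higher. At these shares lists of this size would hold few calls, so nothing is read from their absence. Of 24 protein disulfide isomerases, the family of AGR2, 21 were tested, with 0 called in either direction and a median log2 difference of 0.02. The most abundant were P4HB, at 279 ± 25.5 and 263 ± 19.8 FPKM, and PDIA6, at 262 ± 8.66 and 254 ± 0.655 FPKM (SD, n = 3). TMX4, at -0.48 (SE 0.06, limma adjusted p = 0.0064), and QSOX1, at 0.36 (SE 0.08, limma adjusted p = 0.0491), missed only the fold limit. All 36 genes of the unfolded protein response list, to which XBP1 belongs by function, were tested, with 0 called and a median of -0.02. Its most abundant genes were the chaperones CALR, at 579 ± 46.4 and 570 ± 31.2 FPKM (SD, n = 3), a log2 difference of -0.02 (SE 0.07), and HSP90B1, with one of 0.05 (SE 0.08). SEC23B of this list, at -0.49 (SE 0.06, limma adjusted p = 0.00403), missed only the fold limit. Of the 26 ETS factors listed beside SPDEF and ELF3, 17 were tested, with 0 called beside the same shares and a median of 0.06. ETS1 and ETV4, the most abundant, had log2 differences of 0.06 (SE 0.06) and 0.15 (SE 0.07). ETV2, at 0.38 ± 0.191 and 1.06 ± 0.381 FPKM (SD, n = 3), was above without overlap. Its log2 difference of 1.29 (SE 0.35, limma adjusted p = 0.0901) missed the threshold. With the replicate block, and without shNT replicate 3, 1 ETS factor was called higher.

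The luminal lineage list held 30 genes beside the 8 described here, of which 20 were tested. Of these, 1 was called lower and 1 higher, beside 1.59% and 0.955% of all tested genes, and the median log2 difference was -0.08. SPINT1, an epithelial protease inhibitor, was lower at 2.41 ± 0.377 against 4.51 ± 0.755 FPKM (SD, n = 3), a log2 difference of -0.88 (SE 0.16, limma adjusted p = 0.0255). ERBB3, a receptor tyrosine kinase of luminal cells, was higher at 2.69 ± 0.611 against 1.43 ± 0.162 FPKM, a log2 difference of 0.85 (SE 0.17, limma adjusted p = 0.0352). Each of these calls held in only 1 of the 6 leave-one-out fits. FOXA1, the pioneer factor of luminal cells, was at 1.17, 1.72 and 1.87 FPKM in shNT and at 1.81, 1.38 and 1.92 FPKM in the shGPR81-labelled libraries, which overlap. GATA3, a luminal lineage factor, was at 1.11, 1.34 and 1.19 FPKM against 1.37, 1.34 and 1.39 FPKM, with a log2 difference of 0.16 (SE 0.13), and was not called.

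Of 34 other genes of the estrogen response, the class to which TFF1 and GREB1 belong, 25 were tested. Here too 1 was called lower and 1 higher, beside 1.59% and 0.955% of all tested genes, with a median log2 difference of -0.06. MYB, a transcription factor, was higher at 0.984 ± 0.167 against 0.425 ± 0.052 FPKM (SD, n = 3), with a log2 difference of 1.04 (SE 0.19, limma adjusted p = 0.0224), and its call held in 3 of the 6 leave-one-out fits. WISP2, a matricellular protein, had 2, 4 and 3 reads in shNT and was listed at 0 in the shGPR81-labelled libraries. It passed the filter only through its shNT libraries, so its call is a description, and the call held in 0 of those 6 fits.

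Of 12 genes listed as partners of trefoil factors and AGR2, 8 were tested, with a median log2 difference of -0.22. Of the 8, 2 were called lower and 0 higher, beside 1.59% and 0.955% of all tested genes. These were MUC5AC, which this list shares with the mucous list, and CXCR4, a chemokine receptor. CXCR4 was at 0.643, 0.724 and 0.79 FPKM in shNT and at 0.185, 0.234 and 0.0467 FPKM in the shGPR81-labelled libraries. The groups were apart, with a log2 difference of -1.76 (SE 0.33, limma adjusted p = 0.0263), and the call held in 3 of the 6 leave-one-out fits. CXCR4 rested on few reads, 44 against 10. It was also not called with a filter of 1 FPKM or with pseudocounts of 1 and 0.01. From the same RNA sequencing, the paper lists CXCR4 among the cell motility genes decreased in its shGPR81 cells. Of the other proteins with a trefoil domain, GAA, the lysosomal alpha-glucosidase, and ZP1, a protein of the egg coat, were tested, with log2 differences of -0.03 (SE 0.14) and -0.18 (SE 0.45), and were not called.

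**Figure D4:**
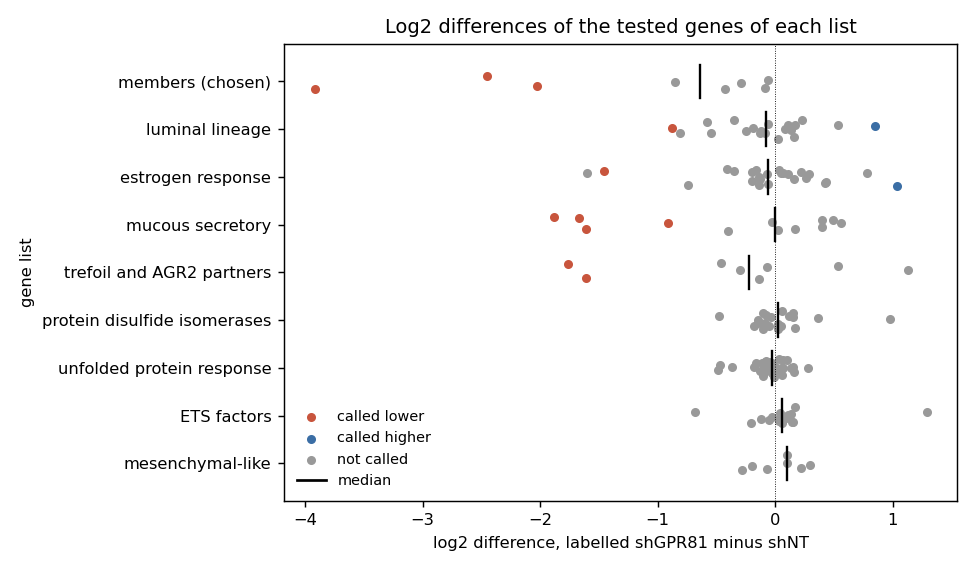
Each point is the log2 difference (labelled shGPR81 minus shNT) of 1 tested gene, by gene list, with called genes in red (lower) or blue (higher), other genes in grey and a black bar at the median of the list. The 8 genes chosen here, selected on this contrast, have a median of -0.64. The medians of the other 8 lists plotted lie between -0.22 and 0.10, and the set is not compared with them.

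Among 11670 tested genes that averaged 1 FPKM or more, the 5 whose log2 values over the 6 libraries followed those of TFF1 most closely were YTHDF1, AURKA, CSNK2A1, GID8 and ICAM1. Their Pearson correlations with TFF1 were 0.9984, 0.9983, 0.9982, 0.9975 and 0.9973. Over 2 groups of 3 libraries such a value mostly reflects the step between the groups, and 283 genes exceeded 0.95. YTHDF1, AURKA, CSNK2A1 and GID8 lie on chromosome 20. Their differences were much smaller than that of TFF1, at -0.34, -0.33, -0.64 and -0.35 on the log2 scale. ICAM1, an adhesion molecule on chromosome 19, had a log2 difference of -1.35 (SE 0.11, limma adjusted p = 0.00106). The paper lists ICAM1, like CXCR4, among its decreased cell motility genes.

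The RefSeq promoter table (GRCh38.p14) held 4 of the 8 genes, AGR2, SPDEF, ELF3 and XBP1. TFF1, TFF2, TFF3 and GREB1 were not matched. The 250 bases before the RefSeq start were searched on both strands for 7 motifs, and each sequence was found at a single place of its chromosome in GRCh37. The promoters of AGR2, whose level was the steadiest of the set, and of ELF3 are shown because each holds 1 match to a motif of the search, in capitals. That of AGR2, at chr7:16844624-16844873 on the minus strand of GRCh37, lies within the span that GENCODE gives the gene and holds the GATA factor letters AGATAA, which begin 119 bases before the start. That of ELF3, at chr1:201979465-201979714 on the plus strand, also lies within the gene's span and holds a TATA box, TATAAA, 34 bases before the start.
AGR2: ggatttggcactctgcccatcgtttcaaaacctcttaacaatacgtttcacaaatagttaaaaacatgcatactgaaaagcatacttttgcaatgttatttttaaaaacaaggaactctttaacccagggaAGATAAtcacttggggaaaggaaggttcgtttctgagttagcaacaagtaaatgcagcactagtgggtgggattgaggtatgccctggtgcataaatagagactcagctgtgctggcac
ELF3: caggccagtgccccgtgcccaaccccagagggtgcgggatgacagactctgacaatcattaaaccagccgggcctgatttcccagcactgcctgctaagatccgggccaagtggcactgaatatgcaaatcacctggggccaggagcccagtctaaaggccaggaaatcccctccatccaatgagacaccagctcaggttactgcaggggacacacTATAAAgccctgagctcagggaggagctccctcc
Of 35116 promoters of this length, 9.17% held the GATA letters and 10.7% the TATA box. The estrogen response element core GGTCA, present in 32.6%, was matched as TGACC once in each of the 2 XBP1 promoters, 50 and 181 bases before the start. The SPDEF promoter held none of the motifs, which were also TGACGTCA (cAMP response element, 1.65% of promoters), GACGTG (unfolded protein response element core, 6.5%), TGTTTAC (forkhead, 2.98%) and CGGAAG (ETS core, 16.5%). None of these motifs overlaps another in the bases shown. A match describes the letters and is not evidence of binding.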

How the data were processed

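RNA from MDA-MB-231 cells with shNT or shGPR81 was sequenced by the authors as stranded mRNA libraries in single reads of 75 bases. The submitters' processing notes name TopHat2 2.0.13, Bowtie2 2.2.3, SAMtools 0.1.19 and Cuffnorm 2.2.1. The paper names the human genome and the deposited description the mouse genome, while the symbols are human. The deposited values are FPKM, scaled by the authors, for 26255 symbols, of which 8456 are at 0 in all libraries.

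Groups followed the labels. Log2(FPKM + 0.1) was fitted for the 14349 genes that reached 0.1 FPKM in 3 or more of the 6 libraries with limma 3.58.1 (trend, R 4.3.3), without a block, and p-values were adjusted over all of them by Benjamini-Hochberg. The smallest p of an exact permutation test with 3 against 3 libraries is 0.1. The script was tested on simulated data. Whole reads were recovered from the steps of the FPKM for 4859 of 15931 genes (relative tolerance 0.0001), from which relative depths and Clopper-Pearson intervals were computed. Coordinates are those of GENCODE 44 on GRCh37. Genes were named by rule: the 8 genes, HCAR1, 4 luminal markers, up to 4 called genes of each list (otherwise the 2 most abundant), the genes near the trefoil cluster and the 5 most like TFF1. MUC6, VIM, MSN, FN1, CD44, SPARC, the keratins, CDH1 and GRHL2 were named beside these after their values were seen. The same holds for CLDN4, CLDN7, EPCAM, TMX4, QSOX1, SEC23B and ETV2. The genes and lists were chosen with earlier results of these data known. Alternatives were a replicate block, each library left out, other filters, pseudocounts and normalizations, and limma without trend.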

Additional observations from a re-analysis of the deposited data

How the results depend on the processing

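The values rest on 3 libraries per group, and for the trefoil factors on few reads. Genes called lower numbered 228 with all libraries and 110 to 238 when 1 was left out, falling by over 1.5 times without shNT replicate 2 (110), shNT replicate 3 (146), shGPR81 replicate 1 (141) or shGPR81 replicate 2 (143). Genes called higher numbered 137 and 68 to 156, falling so without shNT replicate 2 (83), shGPR81 replicate 1 (74), shGPR81 replicate 2 (68) or shGPR81 replicate 3 (84). With a pseudocount of 1, 142 genes were called lower and 75 higher, and the log2 difference of TFF1 was -2.57, since the pseudocount then exceeds the level of TFF1 in the shGPR81-labelled libraries. Over the other alternatives TFF1 was between -4.22 and -3.66.

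The called neighbours of the trefoil factors numbered 4, 1 to 3 when 1 library was left out (1 without shNT replicate 2, and 2 when shNT replicate 1 or 3, or shGPR81 replicate 1, was left out), 2 with a filter of 1 FPKM, where ABCG1 and TMPRSS3 were not tested, and 2 with a pseudocount of 1. Centring on the rest of chromosome 21, chosen after the data were seen, gave -0.58 for SLC37A1, below the fold limit, and kept ABCG1 (-3.06), TMPRSS3 (-2.03) and PDE9A (-0.79) past it. Gel-forming mucins called lower numbered 3, and 1 to 3 when 1 library was left out, with 1 without shNT replicate 2. The log2 difference of FOXA1 was 0.11 and ranged from -0.08 to 0.25 when 1 library was left out, changing sign without shNT replicate 1, and was never called. Leaving out the genes of chromosome 20, also chosen after the data were seen, left 3 mucous genes called lower. HCAR1 had an adjusted p of 0.299 to 0.677 over the alternatives. The cause of these changes was otherwise not tested.

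Whether libraries were paired by their replicate number is not known. Deviations of same-numbered libraries correlated at 0.120, 0.022 and 0.006 across genes. Libraries of different numbers were not compared, so these values cannot decide it. With the replicate block, 197 genes were called lower and 115 higher, TFF1 was at -3.92, and 3 neighbours and 3 gel-forming mucins were called. PDE9A, WFDC2, CXCR4, MYB and WISP2 were not called with it.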
